A study of Bos taurus with 20 samples.

Results

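POU5F1, NANOG and CDX2 are transcription factor genes that mark the first lineages of the mammalian embryo, and their RNA was followed here in each of 20 whole bovine conceptuses. The set was chosen by Ensembl identifier and counted only where the chromosome in the count files was the one given for the gene, which held for 3 genes of 27607. SOX2, the fourth gene of the set, was not analysed here. The study cultured in vitro fertilised embryos with recombinant bovine interleukin 6 (IL6, a cytokine that acts on early embryos) at 100 ng/ml, or with its carrier SOF-BE1, from day 5 until blastocysts were taken for transfer at day 7.5. Conceptuses were later sorted by shape, an elongation stage, into 4 groups: 4 tubular IL6, 4 tubular control, 6 ovoid IL6 and 6 ovoid control conceptuses. All 4 groups passed through the same in vitro culture and transfer, and the sources used here do not give the day of recovery or the recipients. Sexes were mixed in every group, with 2 males and 2 females in tubular IL6, 3 males and 1 female in tubular control, 2 males and 4 females in ovoid IL6, and 3 males and 3 females in ovoid control. Each title also opens with a code of unstated meaning: c6186 (6 conceptuses) and c9007 (4) hold IL6 conceptuses alone, while c201 (4), c5036 (4) and c8086 (2) hold controls alone, so treatment and code cannot be told apart. Among controls shape is partly tied to code too, since c201 holds ovoid and c8086 tubular conceptuses alone, while c5036, c6186 and c9007 hold both shapes.

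In the blastocyst the outer trophectoderm, which founds the placenta, separates from an inner mass that gives the epiblast, the source of the body of the embryo. POU5F1 (OCT4) is a POU-domain factor of pluripotent cells, NANOG is a homeodomain factor of the epiblast, and CDX2 is a caudal-type homeodomain factor of the trophectoderm. In cattle the trophectoderm grows to many times the size of the embryonic disc as the conceptus elongates, and POU5F1 protein is still found in the trophectoderm of the bovine blastocyst, unlike in the mouse. RNA of a whole conceptus mixes these tissues, so that fewer epiblast cells and less RNA per epiblast cell cannot be told apart.

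Values are raw fragment counts, or CPM, which are counts per 1000000 counts of the library scaled with TMM factors, which correct for differences in RNA composition between libraries. Totals of counts assigned to genes ran from 329666 to 13940103 per library, the second lowest being 2298491. The shallowest library, ovoid control replicate 3, had a median Spearman correlation across genes of 0.625 with the other libraries. The next lowest was 0.876, in ovoid IL6 replicate 1, and the other 18 conceptuses lay between 0.914 and 0.970. Shares, ratios, spreads and ranges that rest on these 2 libraries are also given without them, except the ratio of NANOG alone to CDX2.

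POU5F1 (ENSBTAG00000021111) lies on chromosome 23, 27982798 to 27987297 on the plus strand of ARS-UCD1.2, with 5 exons and 1083 exonic bases; 1 other annotated gene overlaps its body, and none overlaps its exons. Every conceptus had at least 1 POU5F1 count, and the gene passed the expression filter. In tubular IL6 conceptuses it measured 0.662, 15.2, 22.4 and 21.6 CPM in replicates 1 to 4. In tubular controls it measured 26.5, 25.9, 34.7 and 3.23 CPM. In each tubular group 1 conceptus was thus far below the other 3. Replicate 1 of tubular IL6 had 3 counts among 4845404, and replicate 4 of tubular control had 35 among 10818029.

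In ovoid IL6 conceptuses POU5F1 had a lowest value of 1.76, a median of 32.2 and a highest value of 48.6 CPM. In ovoid controls the lowest was 5.85, the median 23.2 and the highest 78.8 CPM. Replicates 2 and 3 of ovoid IL6, with 8 and 7 counts, lay at 1.76 and 3.30 CPM, and their 4 group mates lay between 31.9 and 48.6 CPM. The lowest ovoid control value rests on 2 counts of the shallowest library, and without it the ovoid controls ranged from 14.1 to 78.8 CPM. The mean was 15.0 ± 10.1 CPM in tubular IL6 and 22.6 ± 13.5 CPM in tubular control (SD, n = 4 each), and 26.6 ± 19.6 CPM in ovoid IL6 and 31.6 ± 26.5 CPM in ovoid control (SD, n = 6 each). The 4 ranges overlap, and the SDs are large against the means.

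NANOG (ENSBTAG00000020916) lies on chromosome 5, 101412795 to 101417948 on the plus strand, with 4 exons and 1622 exonic bases, and no other annotated gene overlaps it. It was the scarcest of the 3 genes, with 576 counts over all conceptuses against 4453 for POU5F1 and 20417 for CDX2. It had 0 counts in 4 conceptuses and at most 3 counts in 9. In tubular IL6 conceptuses it measured 0.221, 0.158, 2.96 and 4.09 CPM, replicates 1 and 2 having 1 count each. In tubular controls it measured 4.24, 3.86, 2.44 and 0 CPM. Tubular control replicate 4, the conceptus low in POU5F1, had 0 NANOG counts, which allows up to 0.277 CPM (3 counts).

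In ovoid IL6 conceptuses NANOG ran from 0 through a median of 0.886 to 6.92 CPM. In ovoid controls it ran from 0 through a median of 2.10 to 15.1 CPM. Without ovoid control replicate 3 it ran from 0.107 through a median of 3.99 to 15.1 CPM, with a mean of 5.02 ± 6.15 CPM (SD, n = 5). Without ovoid IL6 replicate 1 the ovoid IL6 median was 1.12 CPM. Ovoid IL6 replicates 2 and 3, the lowest of their group in POU5F1, both had 0 NANOG counts, which allows up to 0.660 and 1.42 CPM. Ovoid control replicate 3 also had 0, but at its depth that allows up to 8.77 CPM and does not separate it from any conceptus but ovoid control replicate 2. Group means were 1.86 ± 1.98 CPM in tubular IL6 and 2.63 ± 1.92 CPM in tubular control (SD, n = 4 each), and 1.98 ± 2.69 CPM in ovoid IL6 and 4.18 ± 5.87 CPM in ovoid control (SD, n = 6 each). The highest ovoid control value, in replicate 2, was also the conceptus with the highest POU5F1.

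CDX2 (ENSBTAG00000001819) lies on chromosome 12, 32083603 to 32089291 on the plus strand, with 3 exons and 1285 exonic bases, and no other annotated gene overlaps it. In tubular IL6 conceptuses it measured 181, 76.1, 116 and 129 CPM. In tubular controls it measured 108, 139, 112 and 176 CPM. The 2 tubular conceptuses lowest in POU5F1, tubular IL6 replicate 1 and tubular control replicate 4, had the highest CDX2 level of their own groups. The ovoid conceptuses low in POU5F1 were mixed. Ovoid IL6 replicates 2 and 3 had 85.1 and 98.6 CPM of CDX2, below their group's median of 101 CPM. Ovoid control replicate 6, at 14.1 CPM, was the lowest ovoid control in POU5F1 apart from the shallowest library. It had the highest CDX2 level of its group, 174 CPM.

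In ovoid IL6 conceptuses CDX2 had a lowest value of 9.43, a median of 101 and a highest value of 206 CPM. In ovoid controls the lowest was 5.85, the median 111 and the highest 174 CPM. Both lowest values came from the 2 libraries that stand apart. Ovoid IL6 replicate 1 had 43 CDX2 counts among 5032351, while replicates 2 and 4, at the like depths of 4545473 and 5978192, had 387 and 650. Ovoid control replicate 3 had 2 counts. Without them the ranges were 85.1 to 206 CPM in ovoid IL6 and 85.1 to 174 CPM in ovoid control conceptuses. CDX2 averaged 126 ± 43.4 CPM in tubular IL6 and 133 ± 31.5 CPM in tubular control (SD, n = 4 each), and 112 ± 68.9 CPM in ovoid IL6 and 103 ± 56.3 CPM in ovoid control (SD, n = 6 each). Without the same 2 libraries the ovoid means were 133 ± 52.6 CPM in IL6 and 122 ± 33.6 CPM in control conceptuses (SD, n = 5 each).

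**Figure D1:**
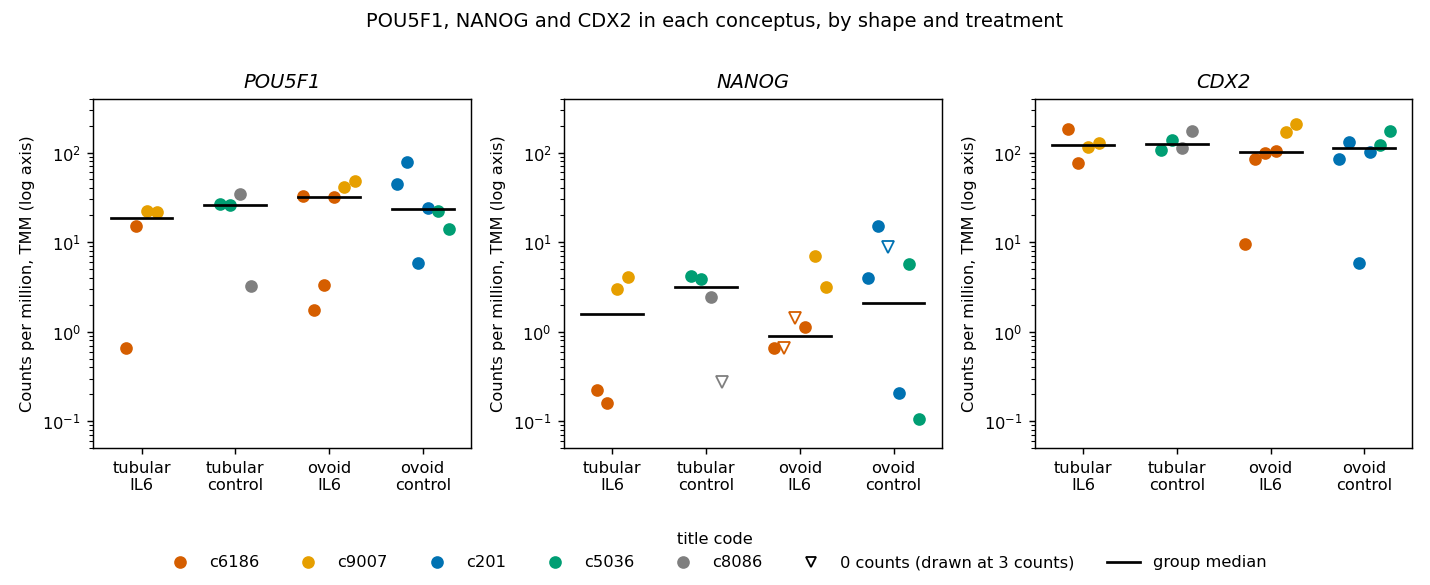
TMM-scaled CPM (log axis) of POU5F1, NANOG and CDX2 in each of 20 conceptuses, in replicate order from left to right within a group; colours are title codes, black lines are group medians, and open triangles are conceptuses with 0 counts, drawn at the level of 3 counts. CDX2 lies between 76.1 and 206 CPM in all but 2 conceptuses, while POU5F1 and NANOG scatter widely within every group.

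To compare levels between genes, CPM was divided by exonic length. On that scale CDX2 stood above POU5F1 in 18 of 20 conceptuses, the exceptions being ovoid IL6 replicate 1 and ovoid control replicate 3, and POU5F1 above NANOG in 20 of 20. The mean level per kilobase of exon over all conceptuses was 90.6 ± 40.3 CPM for CDX2, 23.1 ± 17.7 CPM for POU5F1 and 1.69 ± 2.24 CPM for NANOG (SD, n = 20). Ranked instead by mean log2 CPM adjusted for exonic length, CDX2, POU5F1 and NANOG stood at percentiles 93.0, 60.9 and 10.9 of the 14875 genes tested.

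The balance of epiblast and trophectoderm signal was read from counts of the same library, which needs no scaling between libraries. POU5F1 took a median of 15.3% of the POU5F1 and CDX2 counts in tubular IL6, 17.7% in tubular control, 19.3% in ovoid IL6 and 26.8% in ovoid control conceptuses. The gap between the ovoid medians rests on the 2 libraries that stand apart: without them the medians were 19.1% in ovoid IL6 and 19.2% in ovoid control conceptuses. The ovoid means moved otherwise. They were 24.1% in IL6 and 27.4% in control with all conceptuses, and 13.5% and 22.9% without the 2 libraries. The spread of the share was large in each group. The share was 0.364% in tubular IL6 replicate 1 (exact Clopper-Pearson 95% interval 0.0751% to 1.06%, 3 of 825 counts), against 14.4% to 16.6% in the other 3. In tubular controls it was 1.80% in replicate 4 (1.26% to 2.50%, 35 of 1943 counts), against 15.7% to 23.7% in the other 3. Intervals cover counting error only.

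Among ovoid IL6 conceptuses the share was 2.03% in replicate 2 and 3.24% in replicate 3, with upper bounds of 3.95% and 6.56%. Replicates 4, 5 and 6 had 23.5%, 19.5% and 19.1%. Replicate 1 had 77.5% (70.9% to 83.2%, 148 of 191 counts), the highest of all conceptuses. Its POU5F1 level of 32.4 CPM was close to its group's median, and its CDX2 level was the lowest of the group, so the high share lay with CDX2. Ovoid controls had 34.4%, 37.6%, 19.2%, 15.6% and 7.52% in replicates 1, 2, 4, 5 and 6. Ovoid control replicate 3 had 2 of 4 counts, with an interval of 6.76% to 93.2%, and gives no usable share.

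Adding NANOG to POU5F1 on the per-kilobase scale and dividing by CDX2 gave a log2 ratio, with 0.5 counts added to each gene, of -3.37 ± 2.60 in tubular IL6 and -2.63 ± 1.93 in tubular control (SD, n = 4 each), and -2.08 ± 2.58 in ovoid IL6 and -1.27 ± 1.37 in ovoid control (SD, n = 6 each). Medians were -2.10, -1.83, -1.71 and -1.21 in that order of groups. With all conceptuses the IL6 and control means of either shape differ by less than the SD of either group, and no test was made of this score over several genes. Without the 2 libraries that stand apart, the ovoid values were -2.91 ± 1.80 in IL6 (median -1.77) and -1.61 ± 1.22 in control conceptuses (median -1.81; SD, n = 5 each). Those means differ by more than the control SD and less than the IL6 SD, and the medians stand in the other order. Single conceptuses moved these means strongly: without replicate 1 the tubular IL6 mean was -2.07, without replicate 4 the tubular control mean was -1.68, and without replicate 2 the ovoid IL6 mean was -1.46. In 18 conceptuses, leaving out the 2 libraries that stand apart, the ratio ran from -7.27 to -0.31, so CDX2 exceeded the epiblast factors in each of these conceptuses on this scale.

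**Figure D2:**
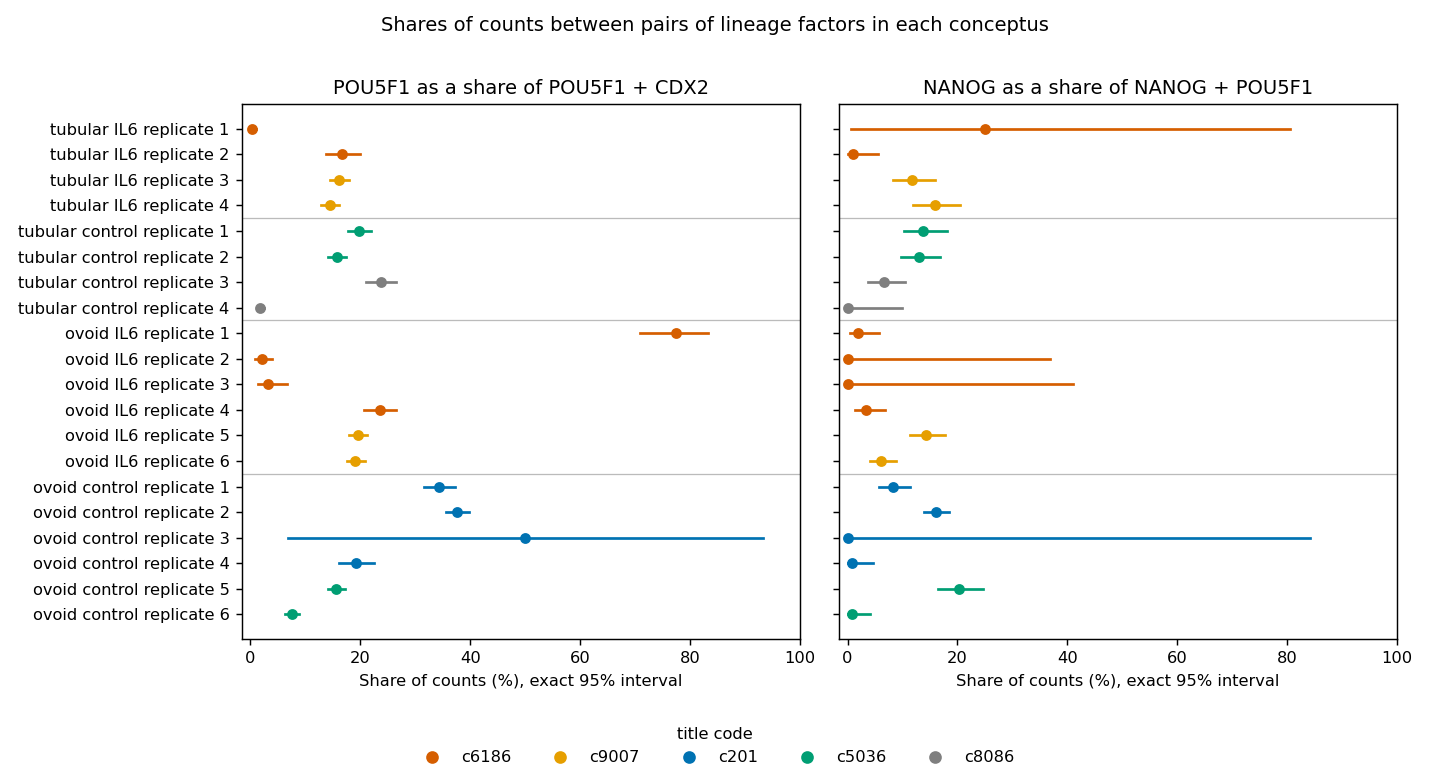
Left, POU5F1 counts as a percentage of POU5F1 plus CDX2 counts; right, NANOG counts as a percentage of NANOG plus POU5F1 counts; each row is a conceptus, points are shares, bars are exact 95% intervals, and colours are title codes. Shares of POU5F1 lie below 4% in 4 conceptuses of 3 groups, and the 148 of 191 counts of ovoid IL6 replicate 1 stand at 77.5%. Of the low ones, tubular IL6 replicate 1 and ovoid IL6 replicates 2 and 3 are of c6186, and tubular control replicate 4 is of c8086. The other c6186 conceptuses lie between 16.6% and 77.5%.

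NANOG did not follow POU5F1 at a fixed ratio. Leaving aside tubular IL6 replicate 1, with 4 counts in all, as a share of NANOG and POU5F1 counts it reached 20.3% in ovoid control replicate 5 (16.4% to 24.6%, 80 of 394 counts), 16.1% in ovoid control replicate 2 and 15.9% in tubular IL6 replicate 4. Other conceptuses with 96 or more POU5F1 counts held less. Ovoid control replicate 6 had 1 NANOG count beside 132 of POU5F1, a share of 0.752% (0.0190% to 4.12%). Ovoid control replicate 4 had 1 beside 117 (0.847%, 0.0215% to 4.63%), and tubular IL6 replicate 2 had 1 beside 96 (1.03%, 0.0261% to 5.61%). Ovoid IL6 replicate 1 had 3 beside 148 (1.99%, 0.412% to 5.70%). These upper bounds lie below the lower bounds of the 3 shares named first. The conceptuses were picked by their shares and the intervals cover counting error only, so this is a description and no test. The total of ovoid control replicate 6 was 9390744 counts and that of replicate 2 was 9660136, close in depth. Over all conceptuses, though, log2 CPM of NANOG rose with the library total (Spearman rho = 0.66 over 20 conceptuses, 0.62 without ovoid control replicate 3), more than that of CDX2 (0.54 and 0.46) and of POU5F1 (0.27 and 0.19), given as a description. Whether depth plays a part in the NANOG shares, or in the relation of NANOG to POU5F1 that follows, was not tested.

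Across the 20 conceptuses log2 CPM of POU5F1 and NANOG rose and fell together (Pearson r = 0.76, adjusted p = 9e-05; Spearman rho = 0.72, adjusted p = 0.00141; 100000 permutations, two-sided, adjusted over 3 pairs). These permutations exchanged all 20 conceptuses freely, without regard to title code or depth. Differences between codes or in depth therefore enter these p-values. Without the 2 conceptuses farthest from the POU5F1 median, tubular IL6 replicate 1 and ovoid IL6 replicate 2, r was 0.80. Within title code c6186, the sole code with 6 conceptuses, r was 0.72 (exact permutation p = 0.119) and rho 0.58 (exact permutation p = 0.244), so the relation was not established inside that code. POU5F1 and CDX2 showed no detectable relation (r = 0.04, p = 0.891, adjusted p = 0.891; rho = 0.05, p = 0.839, adjusted p = 0.839, permutation tests). Without the 2 farthest conceptuses that r was 0.20 (permutation p = 0.44), and within c6186 it was -0.62 (exact permutation p = 0.144). NANOG and CDX2 gave r = 0.31 (p = 0.208, adjusted p = 0.312) and rho = 0.31 (p = 0.184, adjusted p = 0.276) by the same permutation tests. Leaving out tubular control replicate 4 and ovoid control replicate 2, farthest in NANOG, gave r = 0.38 (permutation p = 0.134), and within c6186 it was -0.35 (exact permutation p = 0.553).

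The spread of the epiblast factors between conceptuses of the same group was large for their level. The within-group SD of log2 CPM was 1.78 for POU5F1, against a median of 0.58 over 1841 genes within 0.5 log2 units of its level, of which 2.99% had a larger SD. For NANOG the SD was 2.12, against a median of 0.96 over 1699 genes, with 1.41% larger. For CDX2 it was 1.36, against 0.44 over 1834 genes, with 2.89% larger. The CDX2 spread rests on the 2 libraries that stand apart: without them its SD was 0.46, against a median of 0.31, and 16.2% of genes of like level had a larger SD. POU5F1 and NANOG kept SDs of 1.79 and 2.12 without those libraries, with 0.718% and 0.382% of genes of like level above them. The biological coefficient of variation estimated by edgeR was 89.1% for POU5F1, 140% for NANOG and 62.9% for CDX2, against a median of 35.8% over all genes tested. Every group mixes title codes and library depths, for these genes and for the genes they are set against. The part of code or depth in these spreads was not tested.

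**Figure D3:**
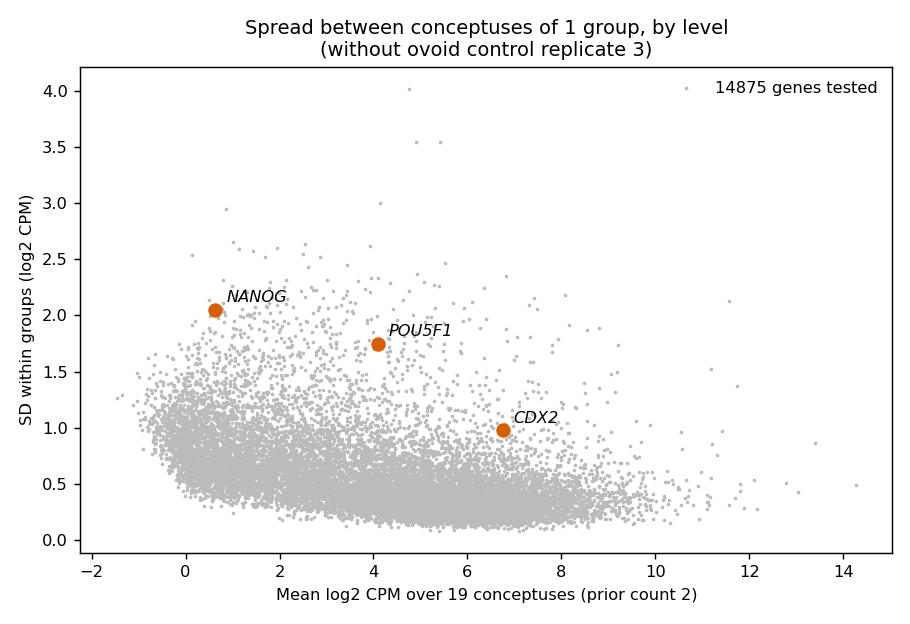
Within-group standard deviation of log2 CPM against mean log2 CPM for the 14875 genes tested (grey) and for the 3 lineage factors (orange), over the 19 conceptuses other than ovoid control replicate 3. POU5F1 and NANOG lie near the upper edge of the cloud at their levels, with SDs of 1.75 and 2.05, and CDX2 lies at 0.98.

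Whether IL6 given to the embryo altered these levels in the later conceptus was tested with edgeR's quasi-likelihood test on all genes, with Benjamini-Hochberg adjustment over 14875 genes. Averaged over both shapes, the IL6 against control log2 difference of POU5F1 was -0.51 ± 0.64 (SE; edgeR, adjusted p = 0.813), with a 95% interval of -1.84 to 0.82. NANOG had -0.76 ± 0.96 (SE, edgeR adjusted p = 0.816, interval -2.76 to 1.25) and CDX2 0.02 ± 0.44 (SE, edgeR adjusted p = 0.994, interval -0.89 to 0.94). None of the 3 genes passed the adjusted threshold of 0.05, and 0 had an unadjusted p under 0.05, while of all genes tested edgeR called 0% after adjustment and 10.7% before it. DESeq2 called 0 of the 3, against 0.98% of its genes. The intervals allow differences of more than 3-fold in POU5F1 toward lower values, so the absence of a call does not show equal levels.

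In tubular conceptuses the IL6 log2 difference was -0.62 ± 0.93 (SE; edgeR, adjusted p = 0.9997) for POU5F1, with an interval of -2.57 to 1.33. It was -0.42 ± 1.35 (SE) for NANOG, with an interval of -3.24 to 2.40, and -0.08 ± 0.64 (SE) for CDX2, with an interval of -1.42 to 1.26. In ovoid conceptuses it was -0.40 ± 0.81 (SE, edgeR adjusted p = 0.965) for POU5F1, with an interval of -2.10 to 1.30. NANOG had -1.10 ± 1.26 (SE), with an interval of -3.73 to 1.54, and CDX2 0.12 ± 0.56 (SE), with an interval of -1.06 to 1.30. Of the 3 genes, 0 were called in tubular conceptuses and 0 in ovoid conceptuses, by edgeR before or after adjustment and by DESeq2. Of all genes, edgeR called 0% in either shape after adjustment, 2.51% in tubular and 8.34% in ovoid conceptuses before it, and DESeq2 0% in tubular and 0.589% in ovoid conceptuses. Tested as an interaction, the IL6 effect in tubular minus that in ovoid conceptuses was -0.22 ± 1.19 for POU5F1, 0.67 ± 1.77 for NANOG and -0.20 ± 0.83 for CDX2 (SE, edgeR adjusted p = 1 for each). There 0 of the 3 genes were called by either tool or before adjustment, and of all genes edgeR called 0% after and 0.632% before adjustment and DESeq2 0%.

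**Figure D4:**
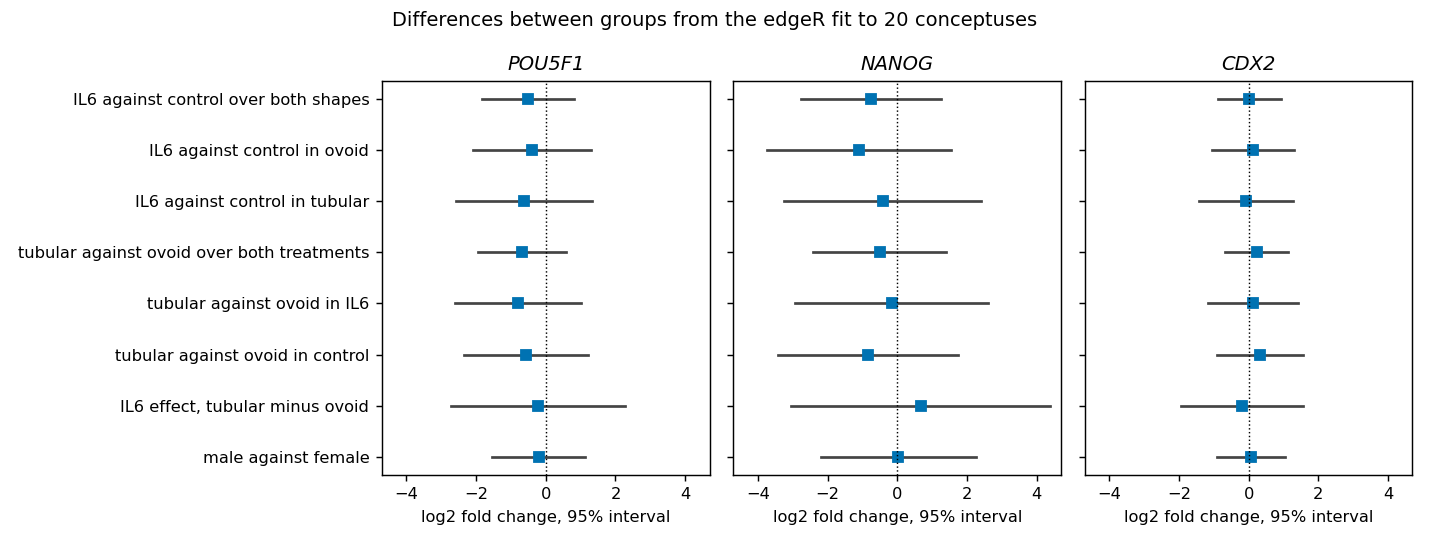
Log2 fold changes (squares) with 95% intervals (bars) of POU5F1, NANOG and CDX2 in 8 comparisons, from 1 edgeR fit to 20 conceptuses; values right of the dotted line are higher in the group named first. All 24 intervals include 0, and those of NANOG are the widest in every comparison.

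The IL6 differences moved with title code. NANOG ran from 0 to 1.12 CPM in the 6 IL6 conceptuses of c6186 and from 2.96 to 6.92 CPM in the 4 IL6 conceptuses of c9007, so the codes did not overlap. Of all genes tested, 5.7% were likewise lower in every c6186 than in every c9007 conceptus, and 5.34% higher. POU5F1 ran from 0.662 to 32.4 CPM in c6186 and from 21.6 to 48.6 CPM in c9007, and CDX2 from 9.43 to 181 and from 116 to 206 CPM, so both overlapped. Totals of c6186 were 2298491 to 6262473 counts and those of c9007 8589036 to 11366747, and with the rise of NANOG with library total given above, the part of depth in the NANOG difference was not tested. Among control codes NANOG ran from 0 to 15.1 CPM in c201, 0.107 to 5.66 CPM in c5036 and 0 to 2.44 CPM in c8086. The 0 in c201 is that of the shallowest library, and the next lowest value there was 0.206 CPM. Without c6186 the IL6 log2 fold change over both shapes was 0.34 for POU5F1 and 0.60 for NANOG, opposite in sign to the values with all conceptuses, and neither passed (edgeR adjusted p = 0.955 and 0.957). Over both shapes the 2 differences stayed negative without any other single code or any single conceptus. In ovoid conceptuses alone the POU5F1 difference also turned positive without c201 (0.34) and without ovoid control replicate 2 (0.044), and in tubular conceptuses alone the NANOG difference was 1.01 without c5036.

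Shape was compared over both treatments and within each. Over both treatments the tubular against ovoid log2 difference of POU5F1 was -0.68 ± 0.60 (SE; adjusted p = 0.914 by edgeR), with an interval of -1.95 to 0.58. NANOG had -0.50 ± 0.91 (SE, edgeR adjusted p = 0.951, interval -2.41 to 1.41) and CDX2 0.23 ± 0.44 (SE, edgeR adjusted p = 0.952, interval -0.68 to 1.14). Of the 3 genes, 0 were called before or after adjustment or by DESeq2, while of all genes edgeR called 0% after and 4.32% before adjustment and DESeq2 0%. Among IL6 conceptuses the tubular against ovoid values were -0.79 ± 0.86 for POU5F1, -0.16 ± 1.32 for NANOG and 0.13 ± 0.62 for CDX2 (SE, edgeR adjusted p = 0.99997 for each). Among controls they were -0.57 ± 0.85, -0.83 ± 1.24 and 0.33 ± 0.58 for the same 3 genes (SE, edgeR adjusted p = 0.9998 for each). In both treatments 0 of the 3 genes were called by either tool or before adjustment. Of all genes, edgeR called 0% in either treatment after adjustment, 2.8% in IL6 and 1.64% in control conceptuses before it, and DESeq2 0% in either. All of these comparisons draw on the same 4 groups and so share conceptuses. Without ovoid control replicate 2, the conceptus highest in POU5F1 and NANOG, the shape difference of NANOG over both treatments was 0.24 and that of POU5F1 -0.40. Among controls the direction rests on code as well. Without c201 the control shape values were 0.48 for POU5F1, 0.79 for NANOG and -0.12 for CDX2, each opposite in sign to the value with all conceptuses. With code as a fixed term, which leaves the shape difference among controls to the 4 conceptuses of c5036, they were 0.74, 0.79 and -0.36 for the same genes (edgeR adjusted p = 1 for each). Over both treatments that fit gave -0.17 for POU5F1, 0.073 for NANOG and -0.13 for CDX2.

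Sex made no detectable difference in the 3 genes. POU5F1 averaged 25.0 ± 23.8 CPM in males and 25.0 ± 14.6 CPM in females (SD, n = 10 each), and the male against female log2 difference was -0.20 ± 0.64 (SE; adjusted p = 0.985 by edgeR). NANOG averaged 3.23 ± 4.60 CPM in males and 2.27 ± 2.47 CPM in females (SD, n = 10 each), with 0.03 ± 1.06 (SE, edgeR adjusted p = 0.999). CDX2 averaged 122 ± 52.8 CPM in males and 111 ± 53.0 CPM in females (SD, n = 10 each), with 0.06 ± 0.46 (SE, edgeR adjusted p = 0.996). Here 0 of the 3 genes were called, and 0 before adjustment, while of all genes edgeR called 0.0538% after and 6.88% before adjustment. DESeq2 called 0 of the 3, against 0.641% of its genes.

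Genes whose log2 CPM ranked the conceptuses most like each factor were sought among 12664 genes whose mean log2 CPM was 1 or more, by Spearman correlation over 20 conceptuses, as a description. The files give these genes by identifier only. Most like POU5F1 were ENSBTAG00000009772 (chromosome 7, 96536559 to 96592167, rho = 0.88), which ran from 0 to 15.7 CPM, and ENSBTAG00000016959 (chromosome 14, 66373395 to 66438425, rho = 0.88), which ran from 4.86 to 111 CPM. Most like NANOG were ENSBTAG00000005774 (chromosome 10, 85679086 to 85681188, rho = 0.91), from 0 to 16.7 CPM, and ENSBTAG00000023192 (chromosome 5, 101293270 to 101299881, rho = 0.91), from 0 to 30.3 CPM. The last of these lies 112.9 kb from NANOG on the same chromosome. Most like CDX2 were ENSBTAG00000000753 (chromosome 7, 19978943 to 20004157, rho = 0.94) and ENSBTAG00000006500 (chromosome 22, 49374567 to 49377717, rho = 0.92).

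All 6 of these correlations stayed at 0.88 or above without the 2 libraries that stand apart. At a rho of at least 0.8 there were 38 genes for POU5F1, 24 for NANOG and 181 for CDX2. The POU5F1 and NANOG lists shared 4 genes, 10.5% of the first and 16.7% of the second, and neither shared any with the CDX2 list. These lists are short against the 12664 genes compared, so 0 shared is near what unrelated lists would give. Sharing between the POU5F1 and NANOG lists is partly built in, since POU5F1 and NANOG correlated with each other. The points share libraries and depth, and closeness in rank says nothing of shared control.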

How the data were processed

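The deposited files hold raw counts of fragments, 1 row a gene and 1 file a conceptus. Per the file headers, the authors counted with featureCounts 2.0.1 in unstranded mode at exons, joined by gene identifier, with duplicates left out, on Ensembl release 105 for ARS-UCD1.2. The submitters' processing notes also name HISAT2, SAMtools and Picard, with no version or setting. Per the labels' protocols, each library was total RNA of 1 whole conceptus, depleted of ribosomal RNA and read as pairs of 150 nucleotides. Reads shared by near-identical copies or pseudogenes could be lost, which makes levels of POU5F1 and NANOG uncertain to that extent.

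The 4 members and the comparisons were chosen with earlier results of these data known. Gene names come with the identifiers chosen, since the files hold none. Marker lists of other tissues, kept by symbol, could not be matched and were not used. The rule for named genes was the members in every comparison and, for each, the 2 genes with the highest Spearman correlation to it.

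All 27607 genes were read and 14875 passed edgeR's default filter by group. One quasi-likelihood fit (edgeR 4.0.16, TMM factors, robust, 4 groups and a sex term) covered 20 conceptuses, with an adjusted p under 0.05 as the threshold. Standard errors are the log2 fold change over the square root of F, and intervals are 95%. Log2 CPM used a prior count of 2. DESeq2 1.42.0, limma 3.58.1, R 4.3.3, Python 3.11.15 and scipy 1.17.1 were also used. The fit was tested on simulated data for IL6 against control over both shapes, run on 14561 genes: at a simulated 2-fold difference 42 of 98 genes were called, at 4-fold 78 of 100, and 4 genes without a difference were called as well. The simulation drew genes at random, each at its own spread, and held no title code effect. POU5F1, NANOG and CDX2 had biological coefficients of variation of 62.9% to 140%, against a median of 35.8% over all genes. These rates therefore do not carry over to them. Alternatives changed the scaling (RLE), the tool (DESeq2), the low-count filter, the sex term and the title code (a random block, a fixed term for shape and sex, or each code left out), and left out single conceptuses.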

Additional observations from a re-analysis of the deposited data

Results flagged for a closer look

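Of 16 sets of values examined (3 genes and the log2 ratio in 4 groups), 3 held a conceptus far from its group. The limit used would flag about 1 set in 20 of independent, normally distributed values. CPM is bounded at 0 and the ratio is built from the same genes, so 3 of 16 cannot be set against that rate. The log2 ratio of POU5F1 plus NANOG to CDX2 was -7.27 in tubular IL6 replicate 1, against -2.149 to -2.004 in the other 3 of its group. It was -5.49 in tubular control replicate 4, against -2.03 to -1.37 in the other 3. These conceptuses come from title codes c6186 and c8086, and had 4845404 and 10818029 counts. NANOG was at 15.1 CPM in ovoid control replicate 2, against 0 to 5.66 CPM in the other 5 ovoid controls, a gap of 0.626 of the range where 0.625 is the limit. That 0 is of the shallowest library, ovoid control replicate 3.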

How the results depend on the processing

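Over 756 refits of the 24 comparisons of the 3 genes, 0 passed the adjusted threshold (lowest adjusted p = 0.170), 660 kept their sign and 96 did not; signs flipped where differences were small for their error, and the cause was not tested. By replicate number, no paired analysis was possible because replicates were numbered in accession order. Title codes are shared by both shapes in c5036, c6186 and c9007, and served as a block for shape; IL6 and control share no code. RLE factors, DESeq2 and the fit without a sex term turned no sign.

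Without c6186, the IL6 log2 fold change was 0.34 for POU5F1 and 0.60 for NANOG over both shapes, 0.65 and 0.60 in ovoid, and 0.032 and 0.60 in tubular conceptuses, where CDX2 had 0.027. The tubular against ovoid value of CDX2 became -0.32 over both treatments and -0.87 among IL6 conceptuses, and the male against female value of POU5F1 0.34. Without c9007, the IL6 value of CDX2 was -0.27 over both shapes and -0.45 in ovoid conceptuses, and the difference of the IL6 effect between shapes -0.59 for NANOG and 0.36 for CDX2. Without c201, IL6 gave -0.33 for CDX2 over both shapes, and 0.34 for POU5F1 and -0.49 for CDX2 in ovoid conceptuses. Shape gave 0.66 for NANOG over both treatments, 0.54 for NANOG among IL6 conceptuses, and 0.48 for POU5F1, 0.79 for NANOG and -0.12 for CDX2 among controls. The difference of the IL6 effect was then -0.25 for NANOG and 0.34 for CDX2, and the male against female value -1.31 for NANOG and -0.18 for CDX2.

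With title code as a random block (correlation 0.148), IL6 gave -0.27 for CDX2 over both shapes and -0.42 in ovoid conceptuses, the difference between shapes 0.31 for CDX2, and sex -0.62 for NANOG and -0.20 for CDX2. Without a low-count filter CDX2 had -0.010 for IL6 over both shapes. Leaving out c5036 or c8086 and the fixed code term were alternatives chosen after seeing the data. With code as a fixed term, shape gave 0.073 for NANOG and -0.13 for CDX2 over both treatments, and 0.74 for POU5F1, 0.79 for NANOG and -0.36 for CDX2 among controls; the difference of the IL6 effect was -1.43 for NANOG and 0.47 for CDX2, and sex gave -0.36 for NANOG. Without c5036, NANOG had 1.01 for IL6 in tubular conceptuses, 0.085 for shape among IL6 conceptuses and -0.45 for sex, and POU5F1 had 0.78 for the difference of the IL6 effect. Without c8086, sex gave -0.0022 for NANOG. Another such alternative left out both libraries that stand apart. It gave -0.054 and -0.20 for CDX2 by shape, over both treatments and among IL6 conceptuses, 0.22 for POU5F1 in the difference of the IL6 effect, and r = -0.046 for POU5F1 and CDX2.

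With 1 conceptus left out, the IL6 value ran from -0.17 to 0.23 for CDX2 over both shapes, -0.20 to 0.50 for CDX2 and -0.68 to 0.044 for POU5F1 in ovoid, and -0.33 to 0.053 for CDX2 in tubular conceptuses. The difference of the IL6 effect ran from -0.54 to 0.053 for CDX2, -0.22 to 1.52 for NANOG and -0.73 to 0.15 for POU5F1. Shape ran from -0.01 to 0.38 for CDX2 and -0.81 to 0.24 for NANOG over both treatments, -0.28 to 0.34 and -0.82 to 0.66 for the same genes among IL6 conceptuses, and -1.17 to 0.35 for NANOG among controls. Sex ran from -0.14 to 0.38 for CDX2, -0.60 to 0.38 for NANOG and -0.44 to 0.046 for POU5F1. For POU5F1 and CDX2 r ran from -0.14 to 0.18 and rho from -0.10 to 0.19, while for POU5F1 and NANOG r stayed between 0.73 and 0.81.

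Counts of all genes called moved as well. For IL6 over both shapes edgeR called 0, DESeq2 143, edgeR without c9007 344, and 0 to 1 with 1 conceptus left out. In ovoid conceptuses these were 0, 86, 154 and 0 to 11. Between sexes edgeR called 8, DESeq2 88, the block fit 13, fits without c6186, c9007 or c5036 and the fixed-code fit 2 each, without c201 or c8086 3 each, without both libraries 70, and 5 to 23 with 1 conceptus left out. With NANOG alone against CDX2, the log2 ratio averaged -7.25 in tubular IL6, -7.13 in tubular control, -6.83 in ovoid IL6 and -5.78 in ovoid control conceptuses; the drop follows from leaving out the more abundant gene. NANOG, with at most 3 counts in 9 conceptuses, rests on the fewest counts of the 3 genes. Library totals of those conceptuses ran from 329666 to 10818029 counts, and the part of depth was not tested.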
